A study of Mus musculus with 24 samples.

Results

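The p53 pathway was followed through 8 genes, the transcription factor gene Trp53 and 7 of its targets: Mdm2, Cdkn1a, Ccng1, Gadd45a, Pmaip1, Bbc3 and Trp53inp1. They were taken by symbol from the deposited count table and make up 8 of its 23284 gene symbols. All 8 passed the filter on low counts, which kept 14970 genes. Poly(A) RNA had been sequenced from mouse embryonic stem cells of strain C57BL/6, grown with serum and LIF on embryonic fibroblast feeders, and from embryoid bodies, the aggregates in which such cells start to differentiate. There were 4 genotypes: KO+N-KR (KO cells that carry the EED form labelled N-KR, tamoxifen 800 nM), KO+WT (KO cells with wild-type EED, 800 nM), KO (the conditional Eed line after deletion, 800 nM) and f/f (the same conditional line with no tamoxifen). EED belongs to the core of PRC2, a Polycomb complex that methylates histone H3. Each genotype was sampled in 3 states, namely 3i, embryoid bodies at day 1 and embryoid bodies at day 2. The labels do not spell out 3i or N-KR and do not name the Cre driver, the deleted exons or the number of clones, and for the rescue lines their genotype field gives only the knockout. Since f/f alone was left untreated, the effects of tamoxifen, of the history of a line and of its genotype cannot be told apart in comparisons with f/f.

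p53 is a transcription factor that is kept low by MDM2, a ubiquitin ligase that p53 itself induces. When DNA damage or other stress stabilizes p53, it binds a paired 10-base element near its targets and turns on genes for cell cycle arrest, for DNA repair and for apoptosis. Mouse embryonic stem cells are known for abundant p53 and a short G1 phase.

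The promoter windows of Cdkn1a and Ccng1 are shown because these members fell in both embryoid body stages (values below) and because theirs were the windows in which the p53 response element consensus was found. Windows run from 250 bases before to 50 bases after an annotated start and are from RefSeq (GRCm38.p6, not the build of the counts). They lie at chr17:29090729-29091028 on the plus strand for Cdkn1a and at chr11:40755237-40755536 on the minus strand for Ccng1. Capitals mark the match, which is 2 half-sites of 10 bases in direct succession with 1 mismatch in each gene.
Cdkn1a: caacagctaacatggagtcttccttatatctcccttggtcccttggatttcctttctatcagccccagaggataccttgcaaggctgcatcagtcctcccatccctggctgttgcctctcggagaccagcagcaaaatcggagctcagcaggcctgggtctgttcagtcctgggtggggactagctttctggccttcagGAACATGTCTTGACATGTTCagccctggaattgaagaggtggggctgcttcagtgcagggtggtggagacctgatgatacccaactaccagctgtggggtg
Ccng1: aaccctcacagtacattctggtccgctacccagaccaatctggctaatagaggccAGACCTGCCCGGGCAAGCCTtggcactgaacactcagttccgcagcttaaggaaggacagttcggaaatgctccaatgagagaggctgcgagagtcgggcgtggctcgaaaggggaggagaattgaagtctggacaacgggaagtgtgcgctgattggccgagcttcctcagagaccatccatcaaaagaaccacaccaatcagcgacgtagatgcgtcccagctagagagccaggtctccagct
The match lies 51 to 32 bases before the start in Cdkn1a and 195 to 176 bases before it in Ccng1. Matches were allowed 2 mismatches, with the core C and G of each half-site kept, and the consensus is palindromic, so both strands were covered. RefSeq windows were held for 6 of the 8 members (9 windows). The match was found for 2 of these 6 members, against 0.392% of all 27025 symbols with a window. The members were chosen as Trp53 and known p53 targets, so these shares only describe the list. Sequence outside the windows was not searched. Cdkn1a has a second window, at a downstream start, without a match. Trp53inp1 and Pmaip1 had no window in the table. A match describes letters in a window and was not tested for binding.

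The 24 libraries held 7553683 to 14426034 counts. The 2 libraries of each group differed by 1.10 to 1.18 times the variance of binomial sampling, against 3.48 to 15.5 times between genotypes of a state. The libraries numbered 1 and those numbered 2 carry library names with different prefixes, 1 prefix for each number, so they are separately named sets, but the labels do not say whether these were separate cultures, preparations or runs. Each pair was summed, which gave 12 samples, 1 for each genotype and state. Levels are CPM with TMM scaling and are not corrected for gene length, so they compare samples and not genes. Between the 2 libraries of a group, the largest fold for a member was 1.05 (Trp53) to 1.21 (Gadd45a). Differences are log2 fold changes ± SE from 1 additive model over the 12 samples (edgeR's quasi-likelihood test, Benjamini-Hochberg over all genes), in which each genotype has its 3 states as samples and each state its 4 genotypes. The p-values therefore say how regularly a difference of single lines comes back across states, not how independent lines vary. Eed, the targeted gene, stood at 168, 181 and 122 CPM in KO+N-KR (3i, day 1, day 2). The levels in KO+WT were 387, 372 and 188 CPM, those in KO 138, 173 and 102 CPM and those in f/f 175, 219 and 131 CPM. Eed was lower in KO than in f/f (-0.35 ± 0.10, adjusted p = 0.0463) and rose in KO+WT against KO (1.17 ± 0.10, adjusted p = 1.75e-05). KO+N-KR did not pass above KO (0.20 ± 0.10, adjusted p = 0.196) and was below KO+WT (-0.97 ± 0.10, adjusted p = 0.000287). Counts by gene cannot show the deleted part or separate the resident from the added gene, so they are a limited check of the labels. All 10 pluripotent cell markers were above 1 CPM in at least 1 sample, with summed levels of 5314 to 8403 CPM.

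The larger movements of the 8 genes were between states. From 3i to day 1 of embryoid body culture, Gadd45a rose more than 4-fold and Trp53 rose, while Cdkn1a fell about 3-fold and Ccng1 and Mdm2 fell less. By day 2 Trp53 was back near its 3i level, Pmaip1, Bbc3 and Trp53inp1 had risen above 3i, and Cdkn1a was still below its 3i level. Of the 8, 3 rose and 3 fell at day 1, where 66.1% of all genes were called (31.9% higher and 34.2% lower). At day 2, 4 rose and 2 fell against 3i, where 63.9% of all genes were called (33.2% higher and 30.6% lower). At day 2 against day 1, 6 rose and 2 fell, where 55.7% were called (29.4% higher and 26.3% lower). The counts of members called at day 1 and day 2, 6 of 8, were not far above these shares.

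**Figure D1:**
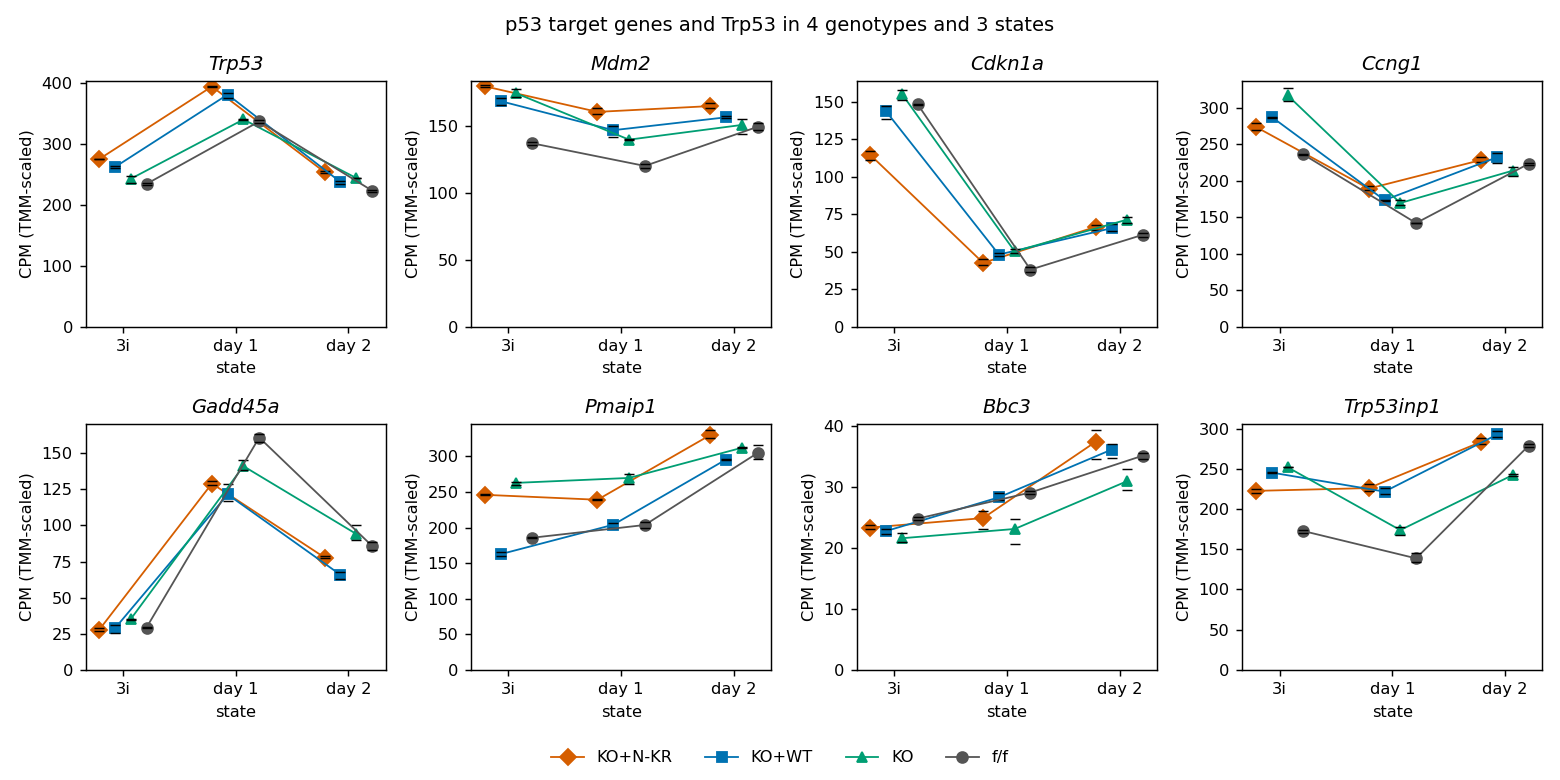
Levels of the 8 genes in CPM (TMM-scaled) at 3i, day 1 and day 2, with 1 point per genotype and state (sum of 2 libraries) and dashes for the single libraries. Cdkn1a was lowest at day 1 in all 4 genotypes, and Gadd45a and Trp53 were highest there.

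Trp53 encodes p53 itself. At 3i it stood at 275, 262, 242 and 234 CPM in KO+N-KR, KO+WT, KO and f/f. In the same order it stood at 394, 381, 339.8 and 337 CPM at day 1, and at 253, 237, 244 and 223 CPM at day 2. All 4 samples of day 1 lay above all samples of 3i and of day 2. Trp53 rose at day 1 by 0.52 ± 0.04 against 3i (adjusted p = 2.88e-07), fell at day 2 by 0.60 ± 0.04 against day 1 (adjusted p = 2.69e-07), and differed by -0.08 ± 0.04 between day 2 and 3i (adjusted p = 0.132).

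Mdm2, the ubiquitin ligase that inhibits p53, varied least across states. It stood at 180.0, 169, 175 and 137 CPM at 3i in KO+N-KR, KO+WT, KO and f/f. At day 1 it stood at 161, 147, 140.0 and 120.4 CPM and at day 2 at 165, 157, 151 and 149.6 CPM. Each genotype was lower at day 1 than at 3i, but the ranges of the 4 genotypes overlapped. Mdm2 fell at day 1 by 0.22 ± 0.06 (adjusted p = 0.00367) and was not called at day 2 against 3i (-0.08 ± 0.06, adjusted p = 0.232). Its difference between day 2 and day 1 was 0.14 ± 0.06 (adjusted p = 0.0491), a call that was lost in 8 of 12 alternative settings, where its values ran from 0.08 to 0.18, with 0.08 (adjusted p = 0.207) without f/f.

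Cdkn1a encodes p21, the inhibitor of cyclin-dependent kinases through which p53 halts the cell cycle. It stood at 115, 144, 155 and 148 CPM at 3i in KO+N-KR, KO+WT, KO and f/f. At day 1 the levels were 42.6, 48.1, 50.2 and 38.0 CPM, and at day 2 they were 66.6, 65.7, 71.5 and 61.4 CPM. The ranges of the 3 states did not overlap, with day 1 lowest and 3i highest in every genotype. Cdkn1a fell by 1.65 ± 0.08 at day 1 (adjusted p = 1.85e-09) and by 1.08 ± 0.08 at day 2 (adjusted p = 5.97e-08), both against 3i, and rose by 0.57 ± 0.08 at day 2 against day 1 (adjusted p = 4.88e-05). Within single genotypes the log2 ratio of day 1 to 3i ran from -1.96 to -1.43. In the GENCODE M21 annotation a gene known only by a clone name, on the other strand, overlaps Cdkn1a, and since the strand setting of the counting is not given, its reads cannot be told apart from those of Cdkn1a.

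Ccng1 encodes cyclin G1, a p53 target that acts with PP2A on MDM2. It stood at 274, 287, 317 and 236 CPM at 3i in KO+N-KR, KO+WT, KO and f/f. At day 1 the levels were 189, 173, 169.5 and 142 CPM, and at day 2 they were 229, 232, 214 and 223 CPM. Its state ranges did not overlap either, and their order was that of Cdkn1a, with smaller steps. The gap between day 2 (232 CPM in KO+WT) and 3i (236 CPM in f/f) was narrow. In single libraries it closed, with 238 CPM in replicate 1 of KO+WT at day 2, against 237 and 235 CPM in f/f at 3i. Ccng1 fell by 0.73 ± 0.07 at day 1 (adjusted p = 1.12e-06) and by 0.30 ± 0.07 at day 2 (adjusted p = 0.00198), and rose by 0.42 ± 0.07 at day 2 against day 1 (adjusted p = 0.000246). Both genes hold the promoter match shown above, and a link between that match and these changes was not tested.

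Gadd45a, which encodes a stress-induced protein of growth arrest and DNA repair, moved the other way. It stood at 27.7, 28.7, 35.1 and 29.3 CPM at 3i in KO+N-KR, KO+WT, KO and f/f. At day 1 it reached 129, 121, 141 and 161 CPM, and at day 2 it held 77.8, 65.8, 94.1 and 85.9 CPM. Every day 1 sample lay above every day 2 sample, and every day 2 sample above every 3i sample. Gadd45a rose by 2.19 ± 0.07 at day 1 (adjusted p = 9.69e-11) and by 1.42 ± 0.07 at day 2 (adjusted p = 3.78e-09), both against 3i, and fell by 0.78 ± 0.07 at day 2 against day 1 (adjusted p = 1.32e-06). The gene E230016M11Rik overlaps Gadd45a on the other strand and moved with it, by 2.13 ± 0.09 at day 1 (adjusted p = 4.90e-10), from a lower level of 7.54 to 9.86 CPM at 3i. Without a stated strand setting the reads of E230016M11Rik and Gadd45a cannot be told apart.

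Pmaip1 and Bbc3 encode NOXA and PUMA, the BH3-only proteins through which p53 starts apoptosis. Pmaip1 stood at 246, 163, 263 and 186 CPM at 3i in KO+N-KR, KO+WT, KO and f/f, and at 239, 204, 269.8 and 204 CPM at day 1. At day 2 it stood at 330.1, 296, 312 and 305 CPM, above all other samples. Pmaip1 rose by 0.56 ± 0.08 at day 2 against 3i (adjusted p = 3.85e-05) and was not called at day 1 (0.11 ± 0.08, adjusted p = 0.244). Bbc3 was the lowest of the 8 in reads, with 23.4, 22.8, 21.6 and 24.8 CPM at 3i and 24.9, 28.3, 23.1 and 29.1 CPM at day 1 in the same genotype order. At day 2 it stood at 37.5, 36.2, 31.0 and 35.2 CPM, again above all other samples. Bbc3 rose by 0.59 ± 0.07 at day 2 (adjusted p = 5.20e-06). Its rise at day 1 was 0.18 ± 0.07 (adjusted p = 0.0298), a call that was lost in 5 of 12 alternative settings, among them without replicate 2 of each group (0.11, adjusted p = 0.327), without KO+WT (0.14, adjusted p = 0.178) and without f/f (0.17, adjusted p = 0.0908).

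Trp53inp1 encodes a nuclear protein that promotes p53 phosphorylation and autophagy. It stood at 223, 245, 252 and 173 CPM at 3i in KO+N-KR, KO+WT, KO and f/f, at 226, 222, 174 and 139 CPM at day 1, and at 284, 293, 242 and 279 CPM at day 2. All 4 genotypes were higher at day 2 than at day 1, but the size of the step differed, from a log2 ratio of 0.33 to 1.01, the highest in f/f. Trp53inp1 rose by 0.56 ± 0.11 at day 2 against day 1 (adjusted p = 0.000623) and by 0.31 ± 0.11 against 3i (adjusted p = 0.0189). The difference at day 1 against 3i, -0.24 ± 0.11, did not pass (adjusted p = 0.0569), but was called in 7 of 12 alternative settings. The call at day 2 against 3i was lost without KO+N-KR (0.30, adjusted p = 0.0501) and without f/f (0.18, adjusted p = 0.109).

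The state ranges of the 4 genotypes did not overlap for 4 members between day 1 and 3i (Trp53, Cdkn1a, Ccng1 and Gadd45a), for 5 between day 2 and 3i and for 7 between day 2 and day 1. Over all genes the shares without overlap were 50.7%, 47% and 39.6%.

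**Figure D2:**
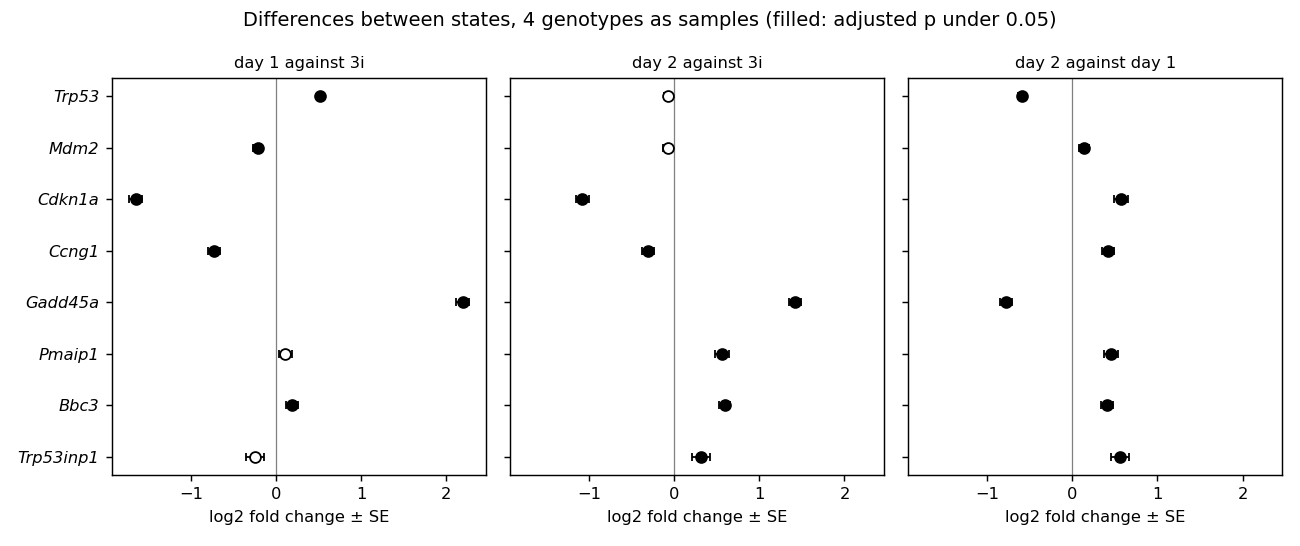
Log2 fold changes ± SE of the 8 genes between states, with the 4 genotypes as samples, and filled points for an adjusted p under 0.05. Gadd45a at 2.19 and Cdkn1a at -1.65 mark the ends of the range at day 1, and at day 2 against day 1 both have the opposite sign.

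The amount of feeder RNA differed between the states in the same direction as some of these genes. The summed level of 16 feeder fibroblast markers was 432, 720, 474 and 501 CPM at 3i in KO+N-KR, KO+WT, KO and f/f. It was 78.6, 86.8, 71.7 and 52.7 CPM at day 1, and 96.5, 123, 86.3 and 64.5 CPM at day 2. Of the 14 tested, 11 fell and 0 rose at day 1, where 34.2% of all genes fell and 31.9% rose. At day 2, 10 fell and 3 rose, where 30.6% of all genes fell and 33.2% rose. Of the 16 markers, 2 (Lum and Twist2) were below 1 CPM in all 12 samples. Over the 12 samples Pearson's r of log2 CPM with the marker sum was 0.95 for Cdkn1a, 0.82 for Ccng1 and -0.96 for Gadd45a, and lay between -0.59 and 0.54 for the other 5 members. These points share their states and libraries, so the values describe the samples only. In bulk RNA, fewer cells of a type and less RNA per cell cannot be told apart, and the part of feeder RNA in the member levels was not tested. Formative epiblast markers moved as well, with sums of 127 to 162 CPM at 3i, 1661 to 2539 CPM at day 1 and 966 to 2561 CPM at day 2.

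**Figure D3:**
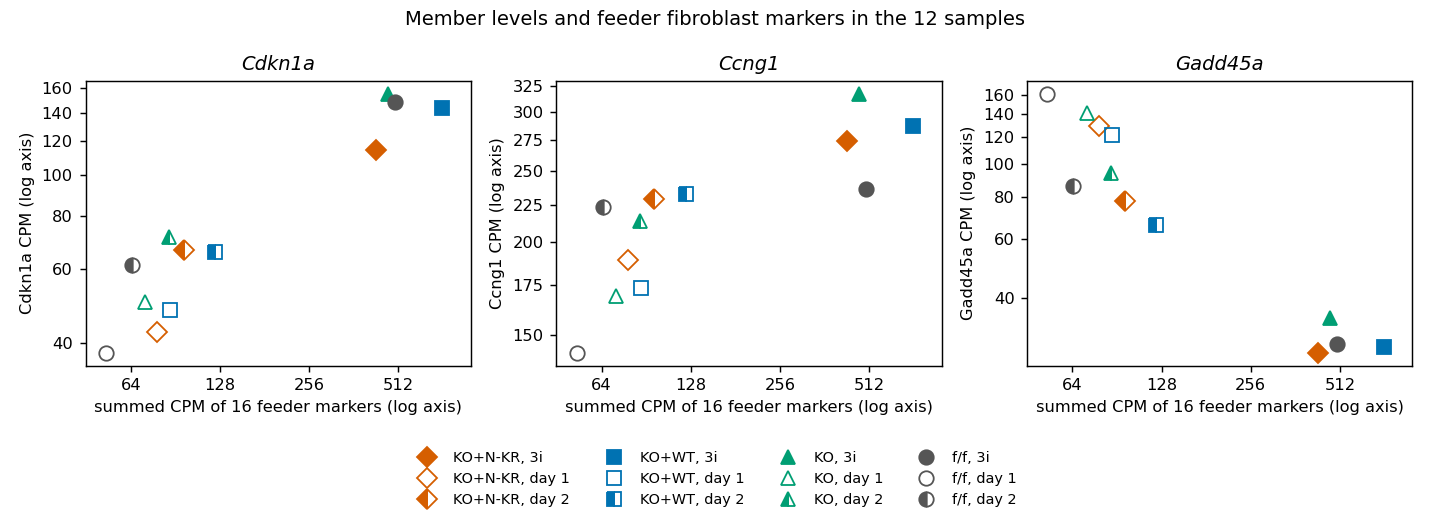
Levels of Cdkn1a, Ccng1 and Gadd45a (CPM, log axis) against the summed CPM of 16 feeder fibroblast markers (log axis) in the 12 samples; colours and shapes mark genotypes, and filled, open and half-filled symbols mark 3i, day 1 and day 2. The 4 samples of 3i stand apart from the 8 embryoid body samples on both axes for Cdkn1a and Gadd45a.

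Other p53 targets moved in both directions too. Of 29 tested, 9 rose and 16 fell at day 1 (86.2% called, against 66.1% of all genes; median -0.30, against -0.02), and 7 rose and 14 fell at day 2 (72.4% against 63.9%; median -0.12, against 0.02). The largest falls at day 1 were those of Fas, a death receptor (-2.69 ± 0.39), Gdf15, a secreted stress cytokine (-2.38 ± 0.22), Ephx1, an epoxide hydrolase (-2.26 ± 0.12), and Btg2, an antiproliferative gene (-1.13 ± 0.11). Fas was below 1.2 CPM in every sample. At day 2 the largest falls were those of Gdf15 (-2.05 ± 0.21), Rrm2b, the p53-inducible ribonucleotide reductase subunit (-1.56 ± 0.10), Ephx1 (-1.55 ± 0.12) and Fas (-1.14 ± 0.31). The rises at day 1 included Plk3, a stress-responsive kinase (1.39 ± 0.09), Rprm, a G2 arrest gene of low level here (0.94 ± 0.27), Bax, the pore-forming apoptosis gene (0.60 ± 0.06), and Gtse1, a p53-binding protein (0.48 ± 0.07). Feeder markers fell over the same comparisons, as given above. Formative epiblast markers moved too, with 8 of 8 higher in both comparisons, against 31.9% and 33.2% of all genes. Their summed levels were 127 to 162 CPM at 3i, 1661 to 2539 CPM at day 1 and 966 to 2561 CPM at day 2. The part of either was not tested.

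**Figure D4:**
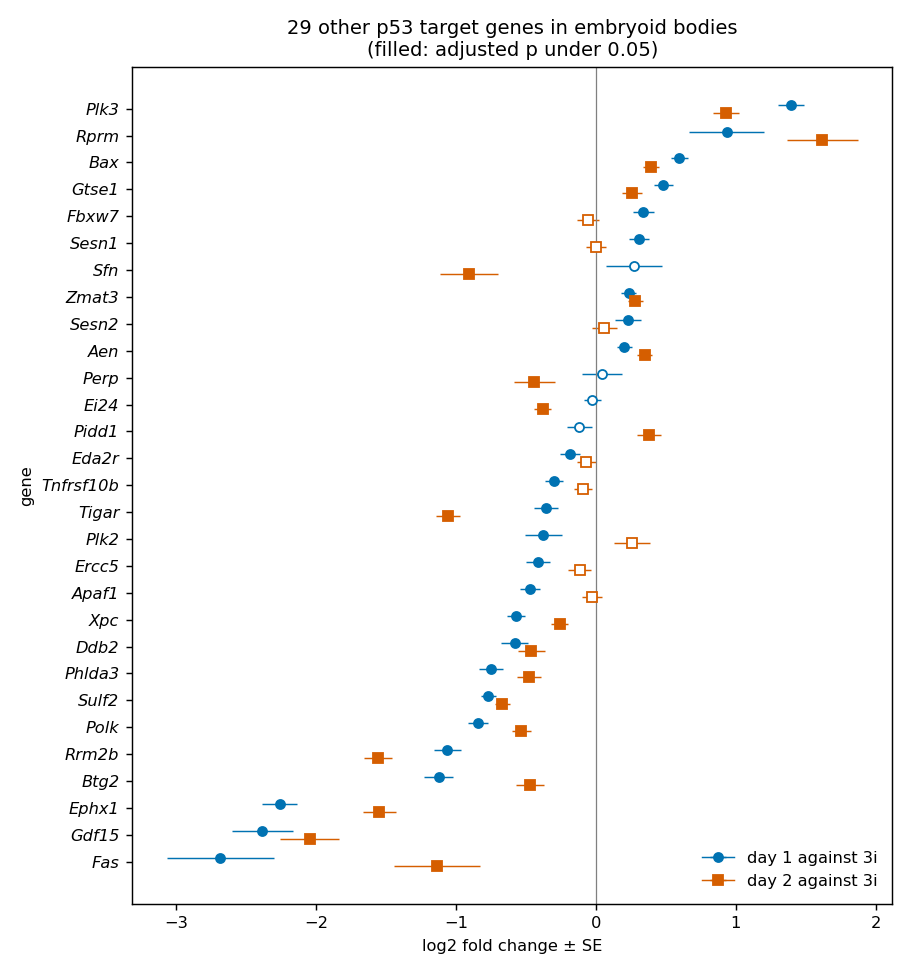
Log2 fold changes ± SE of 29 other p53 target genes at day 1 (circles) and day 2 (squares) against 3i, with filled symbols for an adjusted p under 0.05. At day 1, 9 genes lie right and 16 left of 0 among the filled circles, and Fas, Gdf15 and Ephx1 lie below -2 there.

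Of 23 regulators of p53 tested, 12 rose and 4 fell at day 1 (69.6% called, against 66.1% of all genes). At day 2, 13 rose and 5 fell (78.3% called, against 63.9%). Their medians were 0.13 and 0.22, against -0.02 and 0.02 over all genes. The share called at day 1 is near that of all genes. Mdm4, the MDM2 relative that masks the p53 activation domain, fell at day 1 (-0.84 ± 0.09) and day 2 (-0.75 ± 0.09). It stood at 129 to 182 CPM at 3i, 76.1 to 103 CPM at day 1 and 87.5 to 108 CPM at day 2. Ppp1r13l, the gene of the inhibitor iASPP, fell too (-0.86 ± 0.09 at day 1), as did the checkpoint kinase gene Chek2 (-0.78 ± 0.06). The rises at day 1 included the deacetylase gene Sirt1 (0.70 ± 0.07) and the kinase gene Hipk2 (0.68 ± 0.12), and at day 2 the p53 family member Trp73 (1.12 ± 0.15). The phosphatase gene Ppm1d did not pass at day 1 (0.12 ± 0.10) and rose at day 2 (0.24 ± 0.10, adjusted p = 0.0396). Wrap53, listed here with the regulators, rose at day 1 (0.35 ± 0.08). The annotated spans of Trp53 and Wrap53 do not overlap in GENCODE M21.

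Among the relatives of members, Gadd45g rose at day 1 (1.61 ± 0.16) and day 2 (2.01 ± 0.16), whereas Gadd45b did not pass in either comparison (-0.43 ± 0.19 and 0.09 ± 0.18). Ccng2, the relative of Ccng1, fell at day 1 (-0.54 ± 0.18), and Trp53inp2 did not pass (-0.00 ± 0.07 at day 1 and -0.08 ± 0.07 at day 2). Of 11 genes of the BCL2 family outside the members, 5 rose and 1 fell at day 1 (54.5% called, against 66.1% of all genes). The BH3-only gene Bcl2l11, which encodes BIM, rose by 1.45 ± 0.08, and Hrk, another BH3-only gene, fell by 1.06 ± 0.18. Of 18 cell cycle genes bound by the DREAM repressor complex, through which p21 is known to silence them, 8 rose and 4 fell at day 1 and 4 rose and 7 fell at day 2. These shares, 66.7% and 61.1%, are near those of all genes, 66.1% and 63.9%, and so are no result about these genes. Cdc20, the activator of the anaphase-promoting complex, rose most at day 1 (0.82 ± 0.06), and Cdc25c, a mitotic phosphatase, fell most (-0.32 ± 0.08).

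Between genotypes the differences were small. Within a state, 0 of 144 comparisons of a member between a pair of genotypes reached 2-fold, against 0.826% of such comparisons over all genes, and 4 reached 1.5-fold, against 3.83%. KO was set against f/f to ask what goes with the loss of Eed. Pmaip1 rose, with 263, 269.8 and 312 CPM in KO (3i, day 1 and day 2 in turn), against 186, 204 and 305 CPM in f/f. KO was higher at each state, by log2 ratios of 0.50, 0.41 and 0.03. The change over the states was 0.32 ± 0.09 (adjusted p = 0.0481), 1 of 8 members called, against 9.22% of all genes (4.64% higher). The call was lost without replicate 2 of each group (0.27, adjusted p = 0.0663), without 3i (0.22, adjusted p = 0.0949), without day 1 (0.27, adjusted p = 0.360) and in the fit of these genotypes alone (0.31, adjusted p = 0.0655), and values ran from 0.22 to 0.45 over all alternatives. Without day 1, 0 of all genes were called in this comparison by edgeR's test, with 2272 at an unadjusted p under 0.05. Of the calls over all genes, 694 were higher and 686 lower with TMM scaling, against 1083 and 327 with library totals alone, where the Pmaip1 value was among 2 member calls.

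The other 7 members did not pass in KO against f/f. Their values were 0.21 ± 0.09 for Cdkn1a (adjusted p = 0.139), 0.19 ± 0.06 for Mdm2 (0.0780), 0.21 ± 0.08 for Ccng1 (0.122), 0.22 ± 0.12 for Trp53inp1 (0.269), 0.06 ± 0.05 for Trp53 (0.433), 0.06 ± 0.08 for Gadd45a (0.705) and -0.24 ± 0.08 for Bbc3 (0.0717). A missed threshold does not show that these genes were at the same level. Trp53inp1 was at 252, 174 and 242 CPM in KO (3i, day 1 and day 2 in turn), against 173, 139 and 279 CPM in f/f, so KO was higher at 3i and day 1 and lower at day 2.

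KO+WT was set against KO to ask what re-expressed wild-type EED goes with. Pmaip1 fell, with 163, 204 and 296 CPM in KO+WT (3i, day 1 and day 2 in turn), against 263, 269.8 and 312 CPM in KO. The change was -0.39 ± 0.09 (adjusted p = 0.0127), and the log2 ratio at 3i was -0.69. Gadd45a fell too, with 28.7, 121 and 65.8 CPM in KO+WT, against 35.1, 141 and 94.1 CPM in KO (-0.34 ± 0.08, adjusted p = 0.0141). KO+WT was lower than KO in all 3 states for both genes. E230016M11Rik, antisense to Gadd45a, fell by 0.42 ± 0.10 (adjusted p = 0.0105). These were 2 of 8 members, where 16.2% of all genes were called (9.06% lower). The Pmaip1 call was lost without day 1 (-0.39, adjusted p = 0.175) and in the fit of these genotypes alone (-0.39, adjusted p = 0.0551). The Gadd45a call was lost without day 1 (-0.41, adjusted p = 0.0914) and without day 2 (-0.24, adjusted p = 0.174). Of 14 feeder markers tested, 6 rose and 0 fell in KO+WT against KO, and their part in these results was not tested.

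In KO+N-KR against KO, 0 members passed edgeR's test, against 15.7% of all genes. Over all genes, 4607 of 14970 had an unadjusted p under 0.05 by that test. At that level there were 3 members, namely Cdkn1a (-0.26 ± 0.09, adjusted p = 0.0652), Gadd45a (-0.25 ± 0.08, adjusted p = 0.0608) and Trp53 (0.15 ± 0.05, adjusted p = 0.0624). DESeq2 called 1. Cdkn1a was at 115, 42.6 and 66.6 CPM in KO+N-KR (3i, day 1 and day 2 in turn), against 155, 50.2 and 71.5 CPM in KO, lower in each state. Pmaip1 differed by -0.07 ± 0.09 (adjusted p = 0.668).

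In KO+N-KR against KO+WT, 0 members passed edgeR's test and 0 were called by DESeq2, against 0.561% of all genes. Eed RNA also differed in this comparison, as given above. Pmaip1 alone had an unadjusted p under 0.05. Its level was 246, 239 and 330.1 CPM in KO+N-KR (3i, day 1 and day 2 in turn), against 163, 204 and 296 CPM in KO+WT (0.32 ± 0.09, adjusted p = 0.263). The other 7 members differed by -0.16 to 0.10.

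Both rescue lines were also set against f/f. For KO+N-KR against f/f, Mdm2 rose by 0.31 ± 0.06 (adjusted p = 0.00828), with 180.0, 161 and 165 CPM in KO+N-KR (3i, day 1 and day 2 in turn), against 137, 120.4 and 149.6 CPM in f/f. Trp53 rose by 0.21 ± 0.05 (adjusted p = 0.0185), with 275, 394 and 253 CPM in KO+N-KR against 234, 337 and 223 CPM in f/f. These were 2 of 8 members, where 9.12% of all genes were called (3.71% higher). The Mdm2 call was lost without day 1 (0.26, adjusted p = 0.320), and the Trp53 call without 3i (0.21, adjusted p = 0.0843) or without day 1 (0.21, adjusted p = 0.348). In KO+WT against f/f, Gadd45a fell by 0.29 ± 0.08 (adjusted p = 0.0455), 1 of 8 members where 9.14% of all genes were called (5.43% lower). It is a call that was lost in 7 of 12 alternatives, where values ran from -0.40 to -0.22, with -0.22 (adjusted p = 0.451) without day 1. Mdm2 (0.22 ± 0.06, adjusted p = 0.0555) and Trp53inp1 (0.40 ± 0.12, adjusted p = 0.0573) did not pass in KO+WT against f/f by edgeR's test. They were called, as higher, in 7 and 9 of the 12 alternatives. Of 14 feeder markers tested, 7 rose and 0 fell in KO+WT against f/f, and their part was not tested. The comparisons that use f/f share its samples, as do those that use KO.

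**Figure D5:**
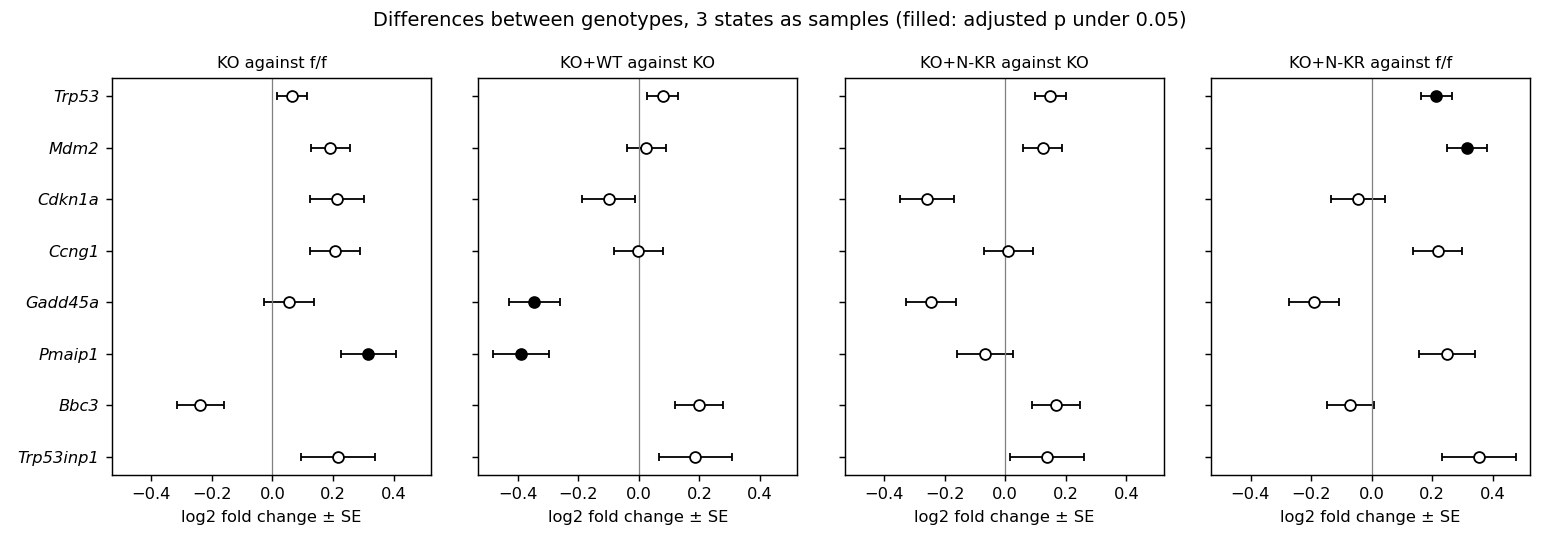
Log2 fold changes ± SE of the 8 genes in 4 comparisons of genotypes, with the 3 states as samples, and filled points for an adjusted p under 0.05. All points lie between -0.4 and 0.4, and the filled ones are Pmaip1 in KO against f/f, Pmaip1 and Gadd45a in KO+WT against KO, and Trp53 and Mdm2 in KO+N-KR against f/f.

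The order of the 4 genotypes was looked at after the values were seen. Trp53 and Mdm2 were highest in KO+N-KR in all 3 states (3.37% of all genes) and lowest in f/f in all 3 (5.6%). The share of genes with both was not computed. Cdkn1a was highest in KO in all 3 states (8.74% of all genes) and Bbc3 was lowest in KO in all 3 (9.08%). At 3i, f/f was the lowest genotype for 4 of 8 members (Trp53, Mdm2, Ccng1 and Trp53inp1), against 28.4% of all genes. Some neighbours in these orders lay within the spread between 2 libraries, such as KO and f/f for Trp53 at day 1 (339.8 and 337 CPM).

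Whether a genotype difference itself changed between embryoid bodies and 3i was tested with an interaction term. By edgeR's test 0 members passed in any of 3 such comparisons, against 0.167%, 0.548% and 0% of all genes. For KO against f/f, the members with the largest terms in size were Trp53inp1 (-0.51 ± 0.20) and Ccng1 (-0.34 ± 0.14). Pmaip1 had the largest for KO+WT against KO (0.45 ± 0.14) and for KO+N-KR against KO+WT (-0.41 ± 0.14). There was 1 sample for each genotype and state in this test.

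Among the 29 other p53 targets, 5 rose and 0 fell in KO against f/f (17.2% called, against 9.22% of all genes; median 0.10, against 0.00). Perp, a desmosomal p53 target of epithelia, rose by 1.07 ± 0.16 (adjusted p = 0.00679), with 28.5, 30.7 and 29.4 CPM in KO (3i, day 1 and day 2 in turn), against 18.7, 15.0 and 9.53 CPM in f/f. In KO the levels of Perp were close together, and in f/f they were lower at each later state. Plk2, a stress-induced kinase, rose by 0.93 ± 0.15, Sfn, the 14-3-3 sigma gene, by 0.87 ± 0.23, and Btg2 by 0.57 ± 0.12. Since no gene was called without day 1, these calls too are lost there.

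Markers of other cell types moved in the same comparison, where 9.22% of all genes were called (4.64% higher). Of 10 primitive and parietal endoderm markers, 4 rose and 0 fell in KO against f/f, namely Sox7 (1.42 ± 0.35), Dab2 (0.57 ± 0.17), Lama1 (0.45 ± 0.12) and Lamb1 (0.21 ± 0.05). Their summed level was 962, 654 and 601 CPM in KO (3i, day 1 and day 2 in turn), against 904, 675 and 530 CPM in f/f. Of 7 trophoblast markers tested, Tfap2c rose (1.16 ± 0.16) and Ascl2 fell (-0.92 ± 0.24), with sums over 9 genes of 232, 118 and 308 CPM in KO, against 168, 87.5 and 164 CPM in f/f. The defining trophoblast markers Cdx2 and Elf5 were below 1 CPM in all 12 samples. Of 8 formative epiblast markers, 2 fell, Lef1 (-0.82 ± 0.24) and Pou3f1 (-0.66 ± 0.17), with a sum at day 2 of 966 CPM in KO, where f/f had 1947 CPM. The feeder marker sum was 474, 71.7 and 86.3 CPM in KO, against 501, 52.7 and 64.5 CPM in f/f. The part of these markers in the values of the p53 targets was not tested.

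In KO+WT against KO, 1 of these 29 rose and 4 fell (17.2% called, against 16.2% of all genes). Sfn fell by 1.22 ± 0.23, Perp by 1.00 ± 0.16, Plk3 by 0.42 ± 0.11 and Sulf2, a heparan sulfatase, by 0.23 ± 0.06, and Rrm2b rose by 0.51 ± 0.11. Against KO, KO+N-KR again had 1 rise and 4 falls (17.2%, against 15.7%), with Sfn at -1.02 ± 0.23, Perp at -0.84 ± 0.16, Ephx1 at -0.45 ± 0.14, Sulf2 at -0.21 ± 0.06 and Rrm2b at 0.73 ± 0.11. Both shares are near those of all genes, and the KO samples are shared by these comparisons. Endoderm markers had 5 of 10 lower and 0 higher in KO+WT against KO, and 4 higher and 0 lower in KO+N-KR against KO. Formative epiblast markers had 6 of 8 higher in KO+WT and 4 of 8 higher in KO+N-KR, each against KO. Of 14 feeder markers, 6 rose in KO+WT against KO. Over all genes, 16.2% were called in KO+WT against KO and 15.7% in KO+N-KR against KO, in either direction. The part of these markers was not tested. Against f/f, Plk2 was the 1 of 29 that rose in KO+WT (0.65 ± 0.15), and 3 rose in KO+N-KR, namely Plk2 (0.68 ± 0.15), Rrm2b (0.50 ± 0.11) and the apoptosome gene Apaf1 (0.29 ± 0.08). In KO+N-KR against KO+WT none of the 29 passed.

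Among the 23 regulators, 4 rose and 1 fell in KO against f/f (21.7% called, against 9.22% of all genes), and the kinase gene Hipk2 (0.60 ± 0.13) and the ASPP family gene Ppp1r13b (0.65 ± 0.17) led the rises. Hipk2 fell against KO in KO+WT (-0.61 ± 0.13) and in KO+N-KR (-0.54 ± 0.13). Cdkn2a, which encodes the MDM2 inhibitor ARF and the kinase inhibitor p16, was at 15.2, 17.4 and 25.3 CPM in KO (3i, day 1 and day 2 in turn), against 16.4, 12.1 and 12.9 CPM in f/f, and did not pass (0.49 ± 0.18, adjusted p = 0.0940). In KO+WT it was at 12.3, 8.16 and 9.23 CPM and fell against KO by 0.98 ± 0.18 (adjusted p = 0.00322). In KO+N-KR it was at 8.84, 5.88 and 7.19 CPM and fell against KO by 1.41 ± 0.19 (adjusted p = 0.000428). Counts by gene cannot separate the ARF and p16 transcripts. Usp10, a deubiquitinase of p53, fell against KO in KO+WT (-0.50 ± 0.05) and in KO+N-KR (-0.46 ± 0.05). Mdm4, Ppm1d and Wrap53 passed in none of the 6 comparisons of genotypes, with values from -0.12 to 0.25.

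Gadd45g, a relative of Gadd45a, differed more between KO and the other genotypes than any member did. It was at 3.31, 6.95 and 9.75 CPM in KO (3i, day 1 and day 2 in turn), against 6.57, 15.0 and 25.0 CPM in f/f (-1.19 ± 0.19, adjusted p = 0.00687). It was at 6.41, 29.98 and 28.9 CPM in KO+WT and rose there against KO (1.63 ± 0.18, adjusted p = 0.000158), and it rose in KO+N-KR against KO as well (1.27 ± 0.19, adjusted p = 0.000806). Trp53inp2 rose in KO against f/f (0.35 ± 0.08) and fell in KO+WT against KO (-0.31 ± 0.08). Gadd45b fell in KO+N-KR against f/f (-0.91 ± 0.21), and Ccng2 passed in none of the genotype comparisons. Of the 11 BCL2 family genes, 1 rose and 1 fell in KO against f/f, where 9.22% of all genes were called. Bcl2l11 rose (0.36 ± 0.09), and Mcl1, the antiapoptotic partner of NOXA, fell (-0.34 ± 0.07). In KO+WT against KO, where 16.2% of all genes were called, Mcl1 alone passed and rose (0.41 ± 0.07). For KO+N-KR, those that rose against KO were Hrk (0.67 ± 0.21), Mcl1 (0.31 ± 0.07) and the antiapoptotic gene Bcl2l1 (0.31 ± 0.08), and Bok fell (-0.65 ± 0.18). In that comparison 15.7% of all genes were called. Of the 18 DREAM-bound genes, Mki67 rose (0.31 ± 0.08) and Mcm5 fell (-0.23 ± 0.05) in KO against f/f, and the other 16 did not pass. Over all genes 9.22% were called there, so this count is no result about the DREAM-bound genes.

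Across the 12 samples the members did not move as 1 group. Of 28 pairs, 14 had a positive and 14 a negative Pearson's r of log2 CPM. The highest was that of Cdkn1a with Ccng1 (0.89) and the lowest that of Cdkn1a with Gadd45a (-0.96). After the state means were taken out, Ccng1 and Trp53inp1 (0.93), Mdm2 and Ccng1 (0.89), Mdm2 and Trp53inp1 (0.88) and Mdm2 and Trp53 (0.79) were highest, and Cdkn1a with Ccng1 was 0.28. The samples share states, lines and libraries, so these values carry no test.

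The genes most like 3 members over the 12 samples were taken from 11695 genes with at least 5 CPM in the highest sample, by Pearson's r of log2 CPM. For Cdkn1a they were Tagln (0.98), St14, Ephx1, Ppip5k1 and B2m (0.97). Tagln is 1 of the 16 feeder markers, with 25.2 to 37.4 CPM at 3i and 1.11 to 7.95 CPM in embryoid bodies. For Ccng1 they were Garnl3 (0.98), Snora81, Btg2, Socs6 and 4632434I11Rik, and for Mdm2 they were Pm20d1 (0.96), Fam13b, Dennd1a, Ttc17 and Arhgap21. Ephx1 and Btg2 are also in the list of other p53 targets. All points of these correlations share the 3 states and the 4 lines.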

How the data were processed

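Poly(A) RNA was measured in 24 libraries of mouse embryonic stem cells and embryoid bodies, 2 in each of 12 groups taken from the sample titles. Raw read counts were deposited by the authors in 1 table of 30 columns. The 24 columns whose names match the labels entered the work, and 6 were left out. STAR 2.5.2b, DESeq2 and build mm9 are named per the submitters' processing notes. For the counting tool, strand setting and annotation, nothing was given in the sources used here. Library totals were 7553683 to 14426034 counts. The 2 libraries of a group were summed, since they differed by little more than sampling noise, and each sum counts as 1 sample. Genotype and state were fitted additively to the 12 samples with edgeR 4.0.16 (R 4.3.3, quasi-likelihood F-test, TMM, genes kept by filterByExpr, Benjamini-Hochberg over 14970 genes, threshold 0.05, 6 residual degrees of freedom, 3 with interaction terms). Each standard error is the fold change over the root of F. Within a state, log2 ratios used a prior count of 2, with calls by size alone (at least 2-fold and 5 CPM in the higher sample). The fits were tested on simulated data. The 8 members and all gene lists were chosen with earlier results of these data known. All members are named, and of each other list up to 4 genes a direction that passed, by largest change, with Mdm4, Ppm1d, Cdkn2a, Wrap53 and the relatives of members in any case. Of 30 other p53 targets listed, 29 were in the table. Feeder and other cell type markers were summed as CPM. Alternatives were other scalings, DESeq2 1.42.0, no filter on low counts, leaving out a replicate, state or genotype, the 24 libraries unsummed with and without a replicate block, and fits of 2 genotypes alone. Promoter windows are from RefSeq (GRCm38.p6) and gene overlaps from GENCODE M21, neither of which is the build of the counts.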

Additional observations from a re-analysis of the deposited data

Results flagged for a closer look

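Of the members and their relatives, Gadd45b alone passed the test of whether the difference between KO+WT and KO changed between embryoid bodies and 3i. Over all genes 0.548% passed. The Gadd45b call lay close to the threshold of 0.05, with 1 sample for each genotype and state. Alternative settings are not given for it. The relative Ccng2 (-1.05 ± 0.24) and the regulator gene Cdkn2a (-0.99 ± 0.24) had terms of the same sign that did not pass. Gadd45b stood at 27.3, 15.8 and 24.3 CPM in KO+WT (3i, day 1 and day 2 in turn), against 16.7, 19.4 and 36.8 CPM in KO. KO+WT was thus higher at 3i and lower in both embryoid body stages. The interaction term of Gadd45b was -1.17 ± 0.25 (edgeR's quasi-likelihood test, adjusted p = 0.0437).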

How the results depend on the processing

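The comparisons of states kept their counts of members within 1.5 times in every alternative run (5 to 8 called at day 1 and at day 2 against 3i, 7 to 8 between the days). The comparisons of genotypes did not. In KO against f/f the count of members called, 1 as reported, was 2 under library totals alone, 0 in the fit of the 2 genotypes alone and 0 to 1 when a replicate or a state was left out. In KO+WT against KO it was 2, against 1 in the fit of the 2 genotypes alone and 0 to 2 when a replicate or state was left out. In KO+N-KR against KO it was 0, against 1 under library totals, under DESeq2 and without a filter on low counts, and 0 to 1 with a replicate or state left out. In KO+WT against f/f it was 1, against 3 under library totals, 3 under DESeq2, 2 without a filter and 0 to 2 with a replicate or state left out. In KO+N-KR against f/f it was 2, against 4 in the fit of the 2 genotypes alone and 0 to 5 with a replicate or state left out. The count of comparisons of members within a state was 0 at 2-fold and 4 at 1.5-fold.

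When the 24 libraries entered unsummed as 12 groups of 2, without a replicate block, the counts of members called were 7 (KO against f/f), 6 (KO+WT against KO), 7 (KO+N-KR against KO), 5 (KO+N-KR against KO+WT), 7 (KO+WT against f/f) and 6 (KO+N-KR against f/f), and 6, 3 and 4 for the interaction terms of KO against f/f, KO+WT against KO and KO+N-KR against KO+WT. Over the 14619 genes tested there, the calls numbered 7201, 7493, 7543, 2918, 6571 and 6412 in the same order. For the interaction terms they numbered 2976, 2790 and 1766. The counts of members were the same with a replicate block. That fit measures noise near that of repeated sequencing. Libraries with the same replicate number did not deviate together (r from -0.03 to 0.05, 0 of 66 pairs of groups over 0.1). Most of each deviation was counting noise (1.10 to 1.18 times binomial variance), so pairing would hardly have raised r. Whether the numbers pair the samples cannot be decided from these values.

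All reversed values belong to differences near 0 that were not called. Ccng1 in KO+WT against KO was 0.00797 under median-of-ratios scaling, 0.00818 under DESeq2, 0.00346 and 0.00347 with the 24 libraries without and with a replicate block, 0.00338 in the fit of the 2 genotypes alone, and -0.051 to 0.075 with a replicate or state left out. Ccng1 in KO+N-KR against KO was -0.00789 under library totals and -0.067 to 0.13 with a replicate or state left out. In KO+N-KR against KO+WT, with a replicate or state left out, Ccng1 was -0.046 to 0.054 and Bbc3 -0.087 to 0.043. In the same alternatives Gadd45a in KO against f/f was -0.031 to 0.19, Mdm2 in KO+WT against KO was -0.00161 to 0.061, and in KO+N-KR against f/f Cdkn1a was -0.13 to 0.14 and Bbc3 -0.15 to 0.00211. The causes were not tested. Over all genes, library totals alone moved the calls to 769 higher and 638 lower in KO+WT against f/f (555 and 813 with TMM scaling) and to 814 and 689 in KO+N-KR against f/f (555 and 810). Without day 1 the calls over all genes numbered 0 in KO against f/f (1380 as reported), 225 in KO+WT against KO (2422) and 328 in KO+N-KR against KO (2346), with 7201, 7493 and 7543 for the 24 unsummed libraries. With 1 sample for each genotype and state, small differences of members could not be settled.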
